A study of Rattus norvegicus with 9 samples.

Results

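Clozapine given after MK-801 was compared with MK-801 alone in small RNA libraries of rat hippocampus, across every mature rat miRNA counted. The compared set holds 6 of the 9 libraries of the study, 3 from the MK-801+CLO group and 3 from the MK-801 group, chosen by the group named in their titles. The remaining 3 libraries, from saline-treated controls (VEH), are shown beside them. All groups were Sprague-Dawley rats, 10 to a group. They were used after 14 days of habituation, at 5 weeks of age and 120 to 140 g by the protocol, although an age label on every sample reads postnatal day 21. MK-801 (dizocilpine), which blocks the channel of the NMDA-type glutamate receptor and is used to model schizophrenia in rodents, was given by injection into the abdomen at 0.2 mg/kg once a day for 14 days in both compared groups. For the next 7 days the MK-801 group was given saline. Rats of the MK-801+CLO group were instead given 10 mg/kg of the drug that the group's name and the study title give as clozapine (CLO), an atypical antipsychotic, over those 7 days. VEH rats had saline for 14 days and again for 7 days. No group received clozapine without MK-801, so every value below concerns clozapine in rats that had all had MK-801. The labels do not say whether a library came from 1 rat, so p-values measure the spread between libraries, which may be technical.

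A miRNA is a short RNA, cut from a hairpin precursor, that guides the silencing complex to messenger RNAs, mainly by pairing of its bases 2 to 8, the seed. MiRNAs with the same seed form a family that can bind the same target sites. Either strand of the hairpin, the 5p or the 3p arm, can be kept as the mature miRNA. In the hippocampus, miRNAs act in dendrites and at synapses, and some of them, such as miR-132 and miR-212, are transcribed in response to neuronal activity and CREB.

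The mature sequences of the miRNAs on which the results turn are given first, 5′ to 3′, from the RefSeq miRNA table of assembly GRCr8, with the seed in capitals. Of the 633 miRNAs listed, 571 were matched to that table by name, and for 570 of them the deposited sequence was the same. The first pair differs at 1 of 22 bases outside the seed, miR-7a-5p and miR-7b at 1 of 23, miR-34b-5p and miR-34c-5p at 2 of 23 and the pair of miR-132-3p with miR-212-3p at 5 of 22. Reads of the closest pairs could have been split by the counting, so sums over their seed families are also given. For miR-34b-5p and miR-34c-5p that sum also holds miR-34a-5p, miR-449a-5p and miR-449c-5p.
miR-211-5p: uUCCCUUUgucauccuuugccu
miR-204-5p: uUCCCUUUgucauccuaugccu
miR-7a-5p: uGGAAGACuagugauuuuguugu
miR-7b: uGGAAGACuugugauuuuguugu
miR-34b-5p: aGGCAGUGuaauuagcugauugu
miR-34c-5p: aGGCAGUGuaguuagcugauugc
miR-34a-5p: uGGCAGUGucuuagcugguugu
miR-449a-5p: uGGCAGUGuauuguuagcuggu
miR-132-3p: uAACAGUCuacagccauggucg
miR-212-3p: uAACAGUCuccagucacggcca
miR-128-3p: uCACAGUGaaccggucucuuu
miR-138-5p: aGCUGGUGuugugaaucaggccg
miR-143-3p: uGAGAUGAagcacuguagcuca
miR-126a-3p: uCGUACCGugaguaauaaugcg
miR-181c-3p: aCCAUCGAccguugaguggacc
miR-184: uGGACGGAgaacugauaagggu

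The MK-801+CLO libraries were shallower than the MK-801 libraries, with 10665718 to 13553902 counts against 14873183 to 17032971, and depth therefore moved with the group. Its part in the results was not tested. The libraries detected 554 to 574 miRNAs each, and the 10 most abundant took 63.9% to 66.3% of the counts. MK-801+CLO replicate 2 was the shallowest of all 9 libraries. The floor that a count of 0 sets, 3 counts, lay at 0.164 to 0.281 CPM over the 9 libraries, and 10 CPM stood for 107 to 183 counts. The tissue label was checked against markers. The neuronal miRNA miR-124-3p stood at 2821 to 4033 CPM in the 9 libraries, while the liver miRNA miR-122-5p reached at most 0.693 CPM and the muscle miRNA miR-1-3p at most 0.534 CPM. Other markers of the muscle, liver and endocrine list were present, with miR-133a-3p at 17.4 to 32.5 CPM and miR-375-3p at 43.3 to 235 CPM. Levels are counts in CPM of the library total scaled by TMM. Fold changes are log2 values, MK-801+CLO minus MK-801, ± SE from edgeR. In bulk tissue, fewer cells of a type and less RNA per cell cannot be told apart.

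Clozapine after MK-801 was set beside MK-801 alone to ask which hippocampal miRNAs differ with the drug. No miRNA passed an adjusted p of 0.05 in edgeR, that is 0 of 469 tested (0%), and the smallest adjusted p was 0.519. At an unadjusted p under 0.05 there were 39 miRNAs (8.32%), 22 of them higher after clozapine (4.69%) and 17 lower (3.62%). DESeq2 called 2 of 629 (0.318%), miR-211-5p and miR-181c-3p, each at an adjusted p of 0.0351, while limma voom and limma-trend called 0 of 469 (0%). Fold changes above 0 were found for 229 of 469 miRNAs (48.8%). The split between higher and lower depended on the scaling of the libraries. With upper-quartile factors, which shift the median log2 fold change of all tested miRNAs from -0.0044 to -0.12, it was 4 higher and 44 lower, and with library totals it was 15 higher and 20 lower. All fold changes below should be read against that shift.

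The 3 MK-801+CLO values lay all above or all below the 3 MK-801 values for 54 miRNAs (11.5%), 33 all above (7.04%) and 21 all below (4.48%). With library totals in place of TMM the count was again 54, with 22 above and 32 below. Differences were small: the median absolute log2 fold change was 0.15, and 5 miRNAs reached 1 or more, all of them under 10 CPM. The 95% interval of the fold change lay within 2-fold in both directions for 394 of 469 miRNAs (84%). That share was 98.6% at 1000 CPM or more and 59.4% under 10 CPM, where the median SE was 0.30 against 0.11.

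**Figure D1:**
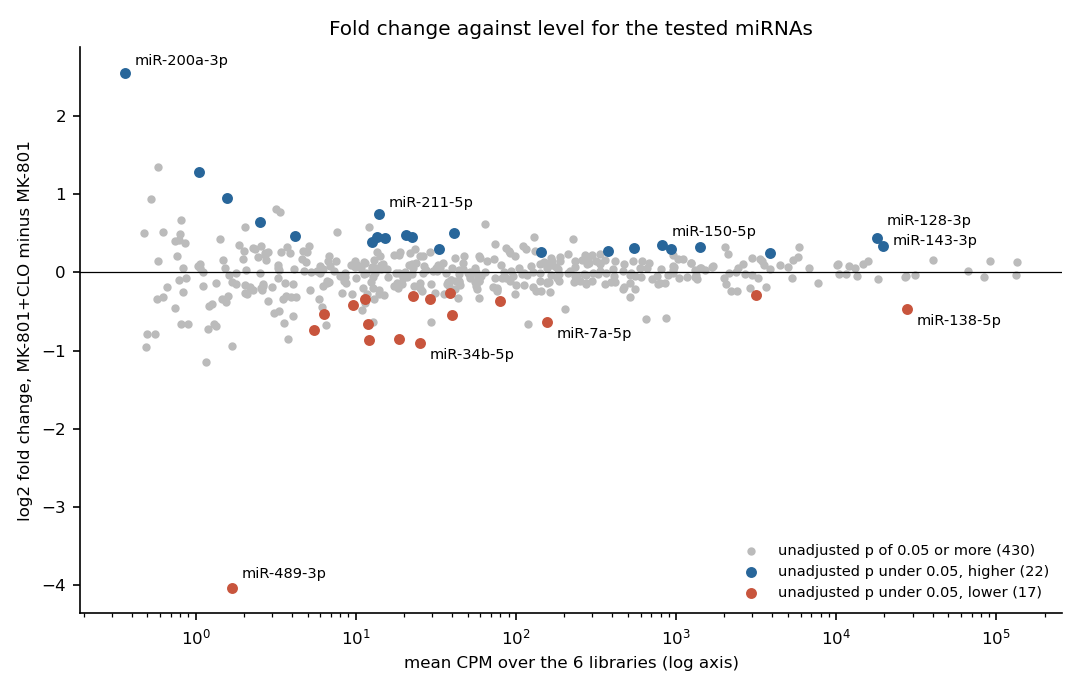
Each point is 1 of the 469 tested miRNAs, with its mean CPM over the 6 libraries on a log axis and its edgeR log2 fold change, MK-801+CLO minus MK-801. The 22 blue points are higher and the 17 red points lower at an unadjusted p under 0.05, and the points spread more widely at low CPM.

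The miRNAs described from here on are the 30 with the smallest unadjusted p among those with a mean of at least 10 CPM, the 10 most abundant, members of the lists, and the families and arm partners of these. Of the 30, 17 were higher and 13 lower. Their unadjusted p-values, by which they were chosen, were all under 0.05, and their adjusted p-values were 0.519 to 0.569. The groups did not overlap for 11 higher and 7 lower ones, and overlapped for 12. Over all 469 tested miRNAs, 11.5% did not overlap. A choice by small p in these same libraries favours groups without overlap, so the higher share among the 30 follows from how they were chosen.

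**Figure D2:**
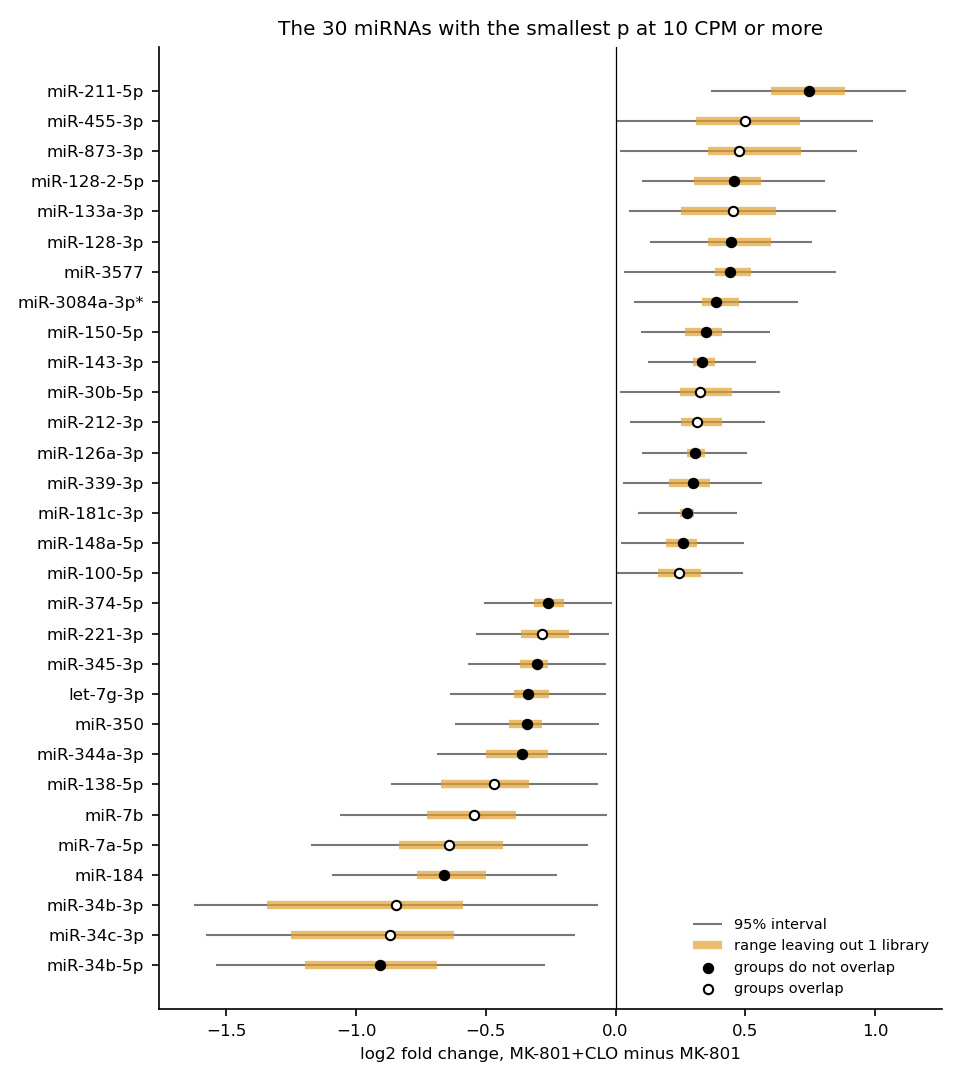
Log2 fold change, MK-801+CLO minus MK-801, of the 30 miRNAs with the smallest unadjusted p at a mean of 10 CPM or more, with 95% intervals in grey and, in orange, the range when each of the 6 libraries is left out in turn. Filled points mark the 18 miRNAs whose groups do not overlap, a share raised by the choice of the 30 by p (11.5% over all tested). MiR-3084a-3p* is a joint entry of 3 names, and none of the 30 passed the adjusted threshold.

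The smallest p belonged to miR-211-5p, which is encoded in an intron of Trpm1, a cation channel gene, and shares its seed with miR-204-5p. Its levels were 20.8, 13.7 and 17.8 CPM in MK-801+CLO replicates 1, 2 and 3, and 9.18, 11.5 and 10.6 CPM in the MK-801 replicates. VEH replicates had 12.2, 11.7 and 10.3 CPM. All 3 MK-801+CLO libraries lay above the other 6, with replicate 2 closest to them. The log2 fold change was 0.74 ± 0.17 (95% interval 0.37 to 1.12, unadjusted p = 0.00132, adjusted p = 0.519). Leaving out 1 library moved it between 0.60 and 0.88, and without MK-801+CLO replicate 2 it passed the adjusted threshold (edgeR adjusted p = 0.0487). Over the other alternatives its adjusted p ran from 0.0351 in DESeq2 to 0.943.

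Its near-identical partner miR-204-5p, encoded in Trpm3, is the abundant member of the family and is known from the choroid plexus and retinal pigment epithelium. It was at 1976, 2645 and 1984 CPM in MK-801+CLO against 2565, 2498 and 2698 CPM in MK-801, and the groups overlapped. Its fold change was -0.23 ± 0.35. The fold changes of the pair had opposite signs, and the difference between them was not tested. MiR-211-5p made up 1.04%, 0.515% and 0.889% of the summed counts of the pair in MK-801+CLO, against 0.356%, 0.457% and 0.391% in MK-801. In VEH replicate 3, where miR-204-5p was at 8436 CPM, miR-211-5p was at 10.3 CPM. MiR-204-5p supplied 99.4% of the family, and the family sum had a fold change of -0.20 ± 0.35.

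Of the miRNAs above 10000 CPM, miR-143-3p, miR-128-3p and miR-138-5p had an unadjusted p under 0.05. MiR-143-3p, a miRNA of smooth muscle whose host is the long non-coding RNA gene Carmn, was at 22922, 20196 and 22246 CPM in MK-801+CLO and at 17754, 16729 and 17352 CPM in MK-801. All MK-801+CLO libraries were above all other libraries, VEH included, which ran from 15457 to 18844 CPM. The log2 fold change was 0.33 ± 0.09 (unadjusted p = 0.00492), between 0.30 and 0.39 with any 1 of the 6 libraries left out. MiR-145-5p, from the same precursor cluster, was at 448, 211 and 240 CPM against 293, 285 and 250 CPM. Its high value came from MK-801+CLO replicate 1: the fold change was 0.12 ± 0.25, and it was -0.29 without that library.

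MiR-126a-3p, an endothelial miRNA from an intron of Egfl7, was at 1051, 966 and 1066 CPM in MK-801+CLO against 852, 810 and 834 CPM in MK-801. These groups did not overlap, and the log2 fold change was 0.30 ± 0.09. Its other arm, miR-126a-5p, was at 5546, 5236 and 6141 CPM against 5530, 4676 and 4974 CPM, with overlapping groups and a fold change of 0.16 ± 0.09. The vascular list has 5 tested members, of which 4 were higher and 2 had an unadjusted p under 0.05. Over all 469 tested miRNAs, 48.8% were higher and 8.32% had an unadjusted p under 0.05, and the counts of every list below stand against these shares. The median log2 fold change of the vascular list was 0.16, against -0.0044 over all miRNAs, and with upper-quartile factors 0.04 with 3 of 5 higher. The list median was 0.30 with MK-801+CLO replicate 2 left out and 0.24 with replicate 3 left out. The summed level of the list, most of it miR-143-3p, was 26612 to 29970 CPM in MK-801+CLO, 22503 to 24434 CPM in MK-801 and 21193 to 24883 CPM in VEH.

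The red blood cell list, measured as a check on blood in the tissue, also had a positive median. All 4 members were higher, none with an unadjusted p under 0.05, and their median was 0.23 (0.13 with upper-quartile factors, all 4 still higher, and 0.15 with MK-801+CLO replicate 3 left out). MiR-144-3p and miR-144-5p of this list are arms of the same hairpin. The summed level of the list, nearly all of it miR-486, was 2945 to 3412 CPM in MK-801+CLO and 2740 to 2932 CPM in MK-801. In VEH it was 3040 to 3457 CPM. The part of blood and vessels in the dissected tissue in these values was not tested. MiR-150-5p, a miRNA of mature lymphocytes that was counted here with the glia and leukocyte list, was at 1011, 828 and 902 CPM against 742, 663 and 750 CPM, without overlap, and had a fold change of 0.35 ± 0.11. Other immune miRNAs of the list lay on both sides of 0: miR-142-5p at -0.12 ± 0.10 and miR-142-3p at -0.26 ± 0.17, but miR-146a-5p at 0.21 ± 0.27, miR-155-5p at 0.16 ± 0.22 and miR-223-3p at 0.17 ± 0.33. Differences from miR-150-5p were not tested.

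**Figure D3:**
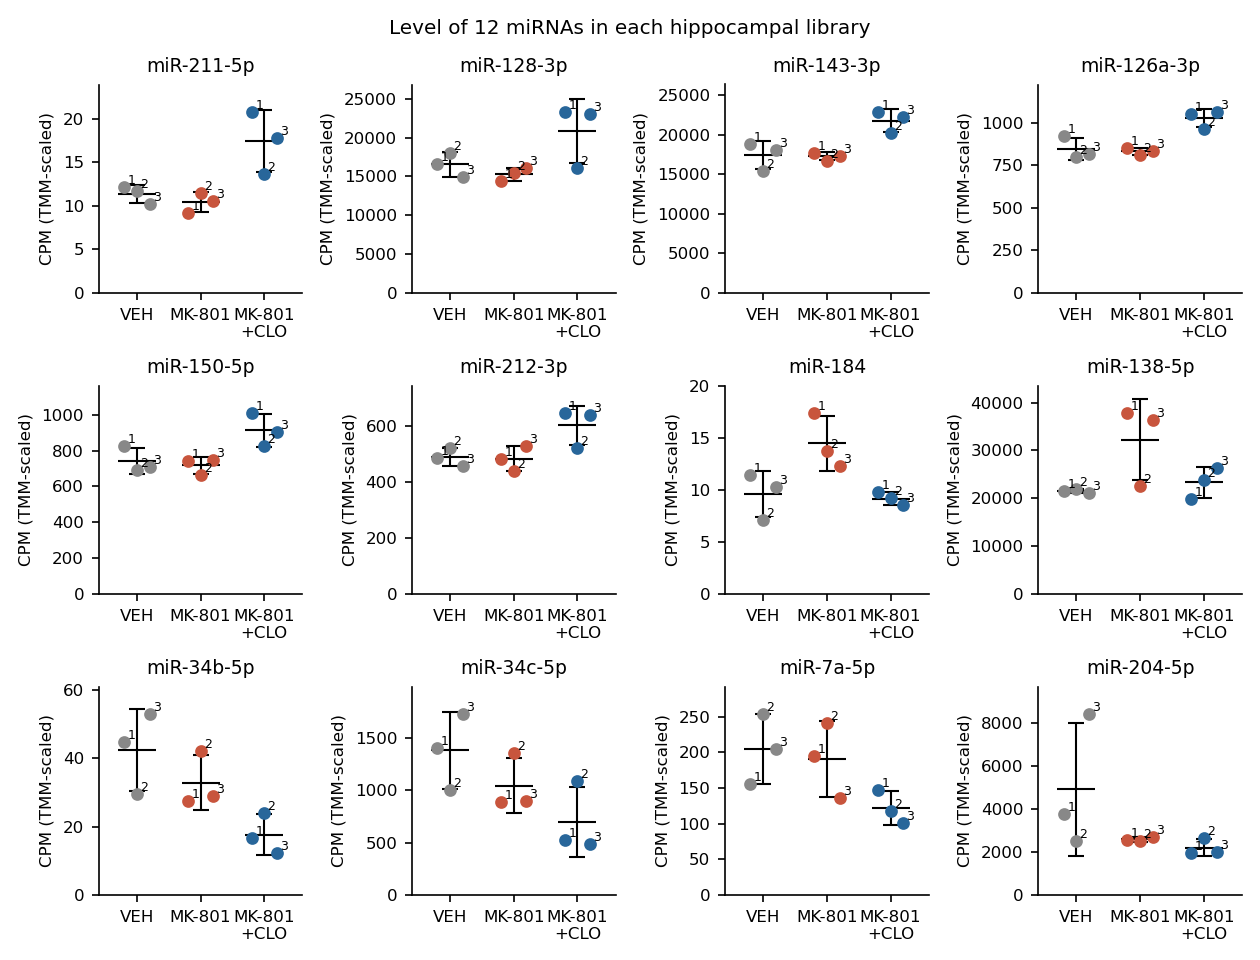
CPM of 12 miRNAs in each of the 9 libraries, with the replicate number beside each point, and with the group mean and SD as bars. The MK-801+CLO values of miR-211-5p, miR-143-3p and miR-126a-3p lie above all other points. Replicate 2 of MK-801+CLO comes close to the MK-801 values for miR-128-3p and lies within them for miR-212-3p.

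Among neuronal miRNAs, miR-128-3p, a brain-enriched miRNA that dampens neuronal excitability, was at 23335, 16079 and 23093 CPM in MK-801+CLO replicates 1, 2 and 3. MK-801 libraries had 14398, 15502 and 16043 CPM, and VEH libraries 16659, 18073 and 14947 CPM. Replicates 1 and 3 stood high, and replicate 2 lay just above the highest MK-801 library and within the VEH range. The log2 fold change was 0.44 ± 0.14 (unadjusted p = 0.00996). It was 0.36 to 0.60 with 1 library left out, and without MK-801+CLO replicate 2 it passed the adjusted threshold (edgeR adjusted p = 0.0487), against 0.225 to 0.943 in the other alternatives. MiR-128-3p comes from hairpins in Arpp21 and R3hdm1. The opposite arm of the Arpp21 hairpin, miR-128-2-5p, was also without overlap, at 15.0, 13.4 and 18.8 CPM against 11.6, 10.6 and 12.3 CPM, with a fold change of 0.46 ± 0.16. That of the R3hdm1 hairpin, miR-128-1-5p, overlapped and had a fold change of 0.25 ± 0.17.

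MiR-138-5p, which limits dendritic spine size, went the opposite way. It was at 19825, 23827 and 26329 CPM in MK-801+CLO and at 37883, 22495 and 36404 CPM in MK-801, while VEH libraries had 21584, 21968 and 21019 CPM. MK-801 replicates 1 and 3 stood above all other libraries, and MK-801 replicate 2 lay among the MK-801+CLO values, so the groups overlapped. The log2 fold change was -0.47 ± 0.18 (unadjusted p = 0.0259). Leaving out MK-801 replicate 2 gave -0.67, and leaving out replicate 1 of that group gave -0.33. Beside it stand 0.58 for MK-801 minus VEH and 0.12 for MK-801+CLO minus VEH, which share libraries with this comparison.

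MiR-7a-5p and miR-7b, a family known from neurons and endocrine cells, lay lower. MiR-7a-5p was at 148, 118 and 101 CPM in MK-801+CLO against 195, 241 and 136 CPM in MK-801, and overlapped through MK-801 replicate 3. Fold changes were -0.64 ± 0.24 for miR-7a-5p and -0.55 ± 0.23 for miR-7b. MiR-7b was 19.2% to 21.7% of the summed counts of the pair in each of the 9 libraries. The family sum had a fold change of -0.60 ± 0.23 (unadjusted p = 0.0285). MiR-344a-3p also lay lower, at 67.8, 59.8 and 82.1 CPM against 96.5, 89.7 and 83.1 CPM, without overlap.

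The neuron-enriched list as a whole was mixed. Of its 17 tested members, 10 were higher and 7 lower, against 48.8% higher over all miRNAs. An unadjusted p under 0.05 was reached by 1 and 2 of them, against 8.32% of all miRNAs. The median log2 fold change of the list was 0.04. With upper-quartile factors the median was -0.08. Each of the 6 libraries moved it by over 1.5 times when left out, from -0.009 without MK-801+CLO replicate 3 to 0.20 with replicate 2 of that group left out. MiR-124-3p, the most neuron-specific of them, was at 3811, 2971 and 4033 CPM against 3539, 3085 and 3137 CPM, a fold change of 0.15 ± 0.13. The oligodendrocyte list, with 2 higher and 4 lower of 6, had a median of -0.16. That median ran from -0.27 with MK-801+CLO replicate 2 left out to -0.05 with MK-801 replicate 3 left out, and was -0.25 and -0.06 with replicate 1 of MK-801 and of MK-801+CLO left out. Its summed levels of 4649 to 7073 CPM in MK-801+CLO and 4731 to 7262 CPM in MK-801 overlapped almost fully. In the list of reactive glia and leukocytes, 4 were higher and 6 lower of 10, with a median of -0.10. The median was -0.06 with MK-801 replicate 1 left out, and -0.05 with replicate 3 of either group left out. There, miR-221-3p was at 3117, 2921 and 2560 CPM against 3947, 3088 and 3422 CPM, a fold change of -0.28 ± 0.12 with overlapping groups.

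Of the activity-dependent miRNAs, all 4 mature products of the miR-132/212 cluster lay higher, by fold changes of 0.23 to 0.43, also with upper-quartile factors (0.10 to 0.31). The groups overlapped for all 4. The largest fold change was that of miR-132-5p, at 286, 174 and 325 CPM in MK-801+CLO against 195, 189 and 197 CPM in MK-801. MiR-212-3p was at 648, 520 and 638 CPM in MK-801+CLO against 481, 441 and 529 CPM in MK-801 (0.32 ± 0.12, unadjusted p = 0.022). MiR-132-3p, which promotes dendrite growth, was at 2406, 1631 and 2695 CPM against 1789, 1752 and 1841 CPM (0.32 ± 0.16, unadjusted p = 0.0753). In replicate 2 of MK-801+CLO, miR-132-3p was below every MK-801 library, whereas in replicates 1 and 3 it was above every one. The summed seed family was at 3054, 2151 and 3334 CPM against 2270, 2193 and 2370 CPM, a fold change of 0.34 ± 0.15 (unadjusted p = 0.0456). The replicate 2 value again lay under all MK-801 values.

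Also on the activity-dependent list, miR-184 lay lower. It stood at 9.79, 9.23 and 8.55 CPM in MK-801+CLO against 17.5, 13.8 and 12.3 CPM in MK-801, and at 11.5, 7.17 and 10.3 CPM in VEH. All MK-801 libraries were above all the other libraries. The log2 fold change was -0.66 ± 0.19 (unadjusted p = 0.00693, adjusted p = 0.519), and that of MK-801 minus VEH, which shares the MK-801 libraries, was 0.58. Over the list, 9 of 14 were higher, against 48.8% of all miRNAs. An unadjusted p under 0.05 was reached by miR-212-3p and miR-184, against 8.32% of all miRNAs. The list median was 0.22, or 0.10 with upper-quartile factors. Leaving out MK-801+CLO replicate 1 gave a median of 0.13, and leaving out replicate 3 of that group gave 0.10. MiR-134-5p, the dendritic miRNA that targets Limk1, was at -0.12 ± 0.15, and miR-485-5p, of the same imprinted cluster, was at 142, 139 and 153 CPM against 113, 131 and 115 CPM (0.27 ± 0.12).

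The dendrite and plasticity list, which shares members with the lists above, had 10 of 16 higher and a median of 0.12 (0.01 with upper-quartile factors). Its median was 0.04 when MK-801+CLO replicate 2 was left out and 0.06 when replicate 3 was. One of its members, miR-138-5p, had an unadjusted p under 0.05. MiR-125a-5p and miR-125b-5p, which act on NMDA receptor subunit and postsynaptic density messages, had fold changes of 0.15 ± 0.08 and 0.11 ± 0.09. Their seed family sum was 27111 to 29051 CPM in MK-801+CLO and 24280 to 26589 CPM in MK-801, without overlap (0.16 ± 0.07, unadjusted p = 0.0664). The list of miRNAs linked to NMDA receptor signalling had 5 of 7 higher, none with an unadjusted p under 0.05, and a median of 0.16 (0.04 with upper-quartile factors, and 0.06 with MK-801+CLO replicate 3 left out). MiR-219a-5p, reported to respond to NMDA receptor blockade, was at -0.27 ± 0.24.

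In the list of miRNAs linked to schizophrenia, 12 of 20 were higher and 3 of those had an unadjusted p under 0.05: miR-128-3p, miR-212-3p and miR-30b-5p. Over all miRNAs, 48.8% were higher, and 4.69% were higher with an unadjusted p under 0.05. The median of the list was 0.02, or -0.09 with upper-quartile factors. With MK-801 replicate 2 or 3 left out it was 0.05, and with MK-801+CLO replicate 2 left out 0.04. MiR-30b-5p was at 1730, 1281 and 1680 CPM against 1239, 1360 and 1142 CPM, with MK-801+CLO replicate 2 inside the MK-801 range (0.33 ± 0.14). MiR-137-3p, whose gene lies at a schizophrenia risk locus, was at -0.11 ± 0.13 and miR-9a-5p at -0.05 ± 0.09. The miR-34a-5p level, at 177, 96.6 and 175 CPM against 87.8, 126 and 115 CPM, again set replicate 2 apart from replicates 1 and 3, with a fold change of 0.45 ± 0.29. Of the 39 miRNAs with an unadjusted p under 0.05, replicate 2 was the MK-801+CLO library nearest to the MK-801 mean for 16.

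The sister miRNAs of miR-34a-5p that come from the miR-34b/34c hairpins, inside Hoatz, had the opposite sign. They are made in multiciliated cells such as those of the ependyma and choroid plexus. MiR-34b-5p was at 16.7, 24.0 and 12.2 CPM in MK-801+CLO, 27.5, 42.2 and 29.0 CPM in MK-801 and 44.8, 29.5 and 53.1 CPM in VEH. Its MK-801+CLO values lay below all 6 others, with a log2 fold change of -0.91 ± 0.29 (unadjusted p = 0.00987). MiR-34c-3p had a fold change of -0.87 ± 0.32 and miR-34b-3p one of -0.85 ± 0.35, both with overlapping groups. The most abundant of the cluster, miR-34c-5p, was at 528, 1083 and 487 CPM against 887, 1352 and 893 CPM (-0.58 ± 0.32, unadjusted p = 0.0979). In both compared groups replicate 2 was the highest library for all 4 of them, and without MK-801+CLO replicate 2 the fold change of miR-34c-5p was -1.05. MiR-449a-5p, which shares the seed of miR-34 and also marks multiciliated cells, was at 7.31, 14.8 and 5.32 CPM against 14.2, 11.5 and 12.2 CPM (-0.48 ± 0.39). The sum over the miR-34 and miR-449 seed was 729, 1218 and 679 CPM against 1017, 1531 and 1049 CPM, a fold change of -0.43 ± 0.27 (unadjusted p = 0.146).

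Other markers of choroid plexus and ependyma lay lower too, with wide errors. MiR-1298 and miR-448-3p, both from Htr2c, the serotonin receptor gene that is highly expressed in choroid plexus, had fold changes of -0.47 ± 0.58 and -0.63 ± 0.55. Over the whole list of choroid plexus, ependyma and epithelium, 5 of 14 were higher and 9 lower, against 48.8% higher over all miRNAs. The 9 include both arms of miR-34b, miR-34c and miR-448, and miR-1298 from the same gene as miR-448, so they are not 9 separate markers. An unadjusted p under 0.05 was reached by 2 of the higher and 3 of the lower members, against 8.32% of all miRNAs. The median of the list was -0.48. It was -0.24 without MK-801 replicate 2 and -0.28 when MK-801+CLO replicate 3 was left out. Its summed level was 2698 to 4035 CPM in MK-801+CLO, 3725 to 4322 CPM in MK-801 and 3907 to 12258 CPM in VEH, and miR-449c-5p was at 0 in the 6 compared libraries. The levels of these markers varied between libraries and groups, and their part in the miR-34b/34c and miR-211-5p values was not tested. The higher members were the epithelial miRNAs miR-200a-3p, miR-141-3p and miR-429, the first and last at no more than 1.01 CPM in any library, together with miR-211-5p and, at 0.03 ± 0.39, miR-204-3p.

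**Figure D4:**
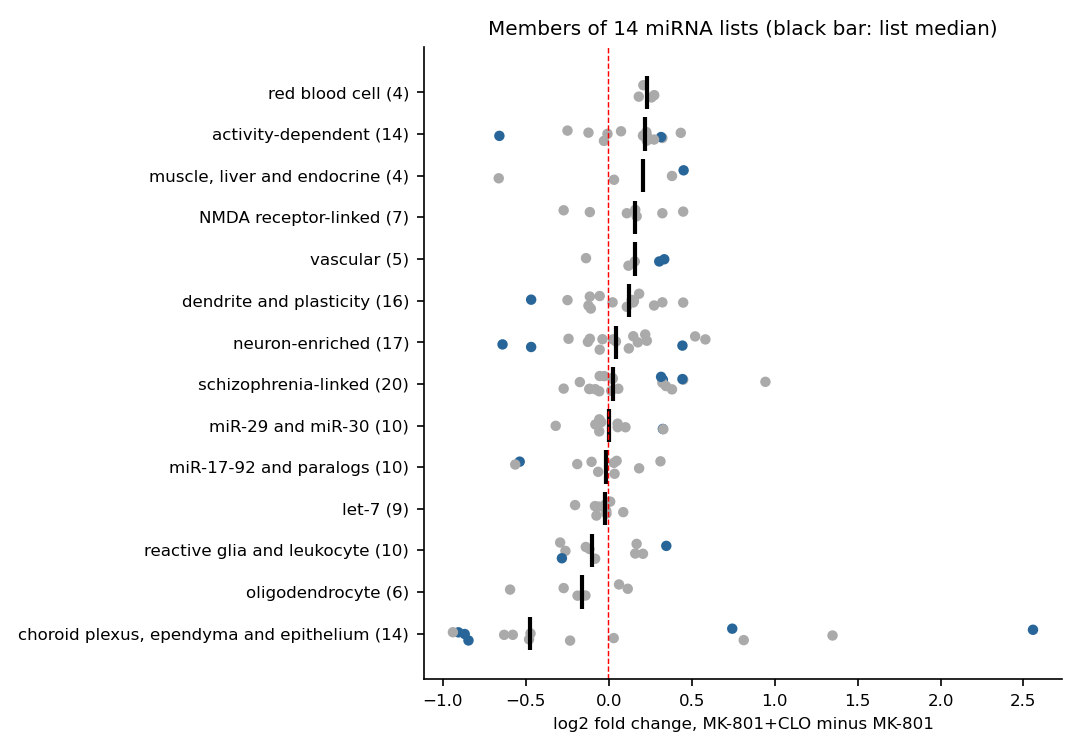
Log2 fold change, MK-801+CLO minus MK-801, of the tested members of 14 miRNA lists (number of tested members in brackets), with blue points for an unadjusted p under 0.05 and the dashed red line at the median of all 469 miRNAs. The black bar is the median of each list, which runs from -0.48 for choroid plexus, ependyma and epithelium to 0.23 for red blood cells.

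Lists of broadly expressed families had medians near 0 with TMM. With upper-quartile factors these were -0.14 for let-7, -0.11 for miR-29 and miR-30, and -0.12 for miR-17-92. The let-7 family, which represses growth and pluripotency messages, had fold changes of -0.20 to 0.09 over 9 members, and its seed sum was at -0.01 ± 0.10. Of the 9, 7 were lower, and the median of -0.02 ran from -0.13 to 0.01 with 1 library left out. In the miR-29 and miR-30 list, 5 of 10 were higher and the median was 0.004, or -0.07 to 0.06 with any 1 of the 6 libraries left out. Within it miR-30d-5p did not overlap between groups, at 5834, 5500 and 8144 CPM against 5126, 5000 and 5380 CPM (0.33 ± 0.17). MiR-30b-5p and miR-30d-5p were not matched by name in the RefSeq table, so the miR-30 seed was summed by the deposited sequences, over 6 miRNAs that include miR-384-5p. That sum was 23136, 22895 and 26354 CPM against 24096, 21301 and 23757 CPM, with overlapping groups and a fold change of 0.08 ± 0.10. The proliferation-linked miR-17-92 list also had 5 of 10 higher, but 2 of 10 with upper-quartile factors, and its median ran from -0.11 to 0.03 with 1 library left out. The muscle, liver and endocrine list had 3 of 4 higher, among them the muscle miRNA miR-133a-3p at 26.2, 19.5 and 32.5 CPM against 17.4, 22.2 and 17.7 CPM (0.45 ± 0.18). The median of that list was 0.21, and it ran from -0.02 to 0.37 with 1 library left out. The neuroendocrine miR-375-3p was at -0.66 ± 0.43.

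The 10 most abundant miRNAs make up the bulk of the counts, and for 9 of them the fold change was between -0.06 and 0.15. Fold changes were 0.14 ± 0.13 for miR-181a-5p, -0.03 ± 0.11 for miR-127-3p, 0.15 ± 0.09 for miR-26a-5p, -0.05 ± 0.09 for miR-9a-5p and 0.02 ± 0.10 for miR-22-3p. They were -0.03 ± 0.08 for miR-191a-5p, -0.04 ± 0.11 for miR-27b-3p and -0.06 ± 0.10 for let-7f-5p. MiR-434-3p, of the imprinted Dlk1-Dio3 region, was the one whose groups did not overlap, at 41591, 41780 and 44090 CPM against 38665, 38605 and 37250 CPM (0.15 ± 0.07, unadjusted p = 0.0536). VEH libraries, at 37943, 40715 and 40691 CPM, lay below the MK-801+CLO range. The remaining member of these 10 was miR-138-5p.

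Several further miRNAs among the 30 had groups without overlap. MiR-181c-3p, the second call of DESeq2, was at 419, 408 and 406 CPM in MK-801+CLO against 341, 326 and 351 CPM in MK-801 and 377, 377 and 354 CPM in VEH. Its log2 fold change was 0.28 ± 0.09 (unadjusted p = 0.00866), and its adjusted p was 0.0351 in DESeq2 and 0.207 to 0.943 in the other alternatives. The other arm of that hairpin, miR-181c-5p, was at 0.07 ± 0.09. MiR-181c-3p shares its seed with miR-181a-1-3p, which supplied 76.8% of their family, and the family sum overlapped between groups (0.185 ± 0.134). MiR-339-3p (0.30 ± 0.12), miR-148a-5p (0.26 ± 0.11), miR-3577 (0.44 ± 0.18) and the joint entry of miR-3084a-3p, miR-3084b-3p and miR-3084d (0.39 ± 0.14) lay above MK-801 in all libraries. MiR-350 (-0.34 ± 0.12), miR-345-3p (-0.30 ± 0.12), let-7g-3p (-0.34 ± 0.13) and miR-374-5p (-0.26 ± 0.11) lay below. Summed with let-7a-2-3p, which has the same seed, let-7g-3p overlapped between groups (-0.097 ± 0.115). With overlap, miR-873-3p (0.47 ± 0.21), miR-455-3p (0.50 ± 0.22) and miR-100-5p (0.25 ± 0.11) were higher. The sum of miR-100-5p and miR-99b-5p, which share a seed, was 77.2% miR-99b-5p and had a fold change of 0.129 ± 0.133. MiR-99a-5p, of the same family, was not matched by name in the RefSeq table and is not in that sum. Its own fold change was -0.03. MiR-455-3p was at 59.6, 51.3 and 32.7 CPM in MK-801+CLO, 37.7, 27.2 and 36.7 CPM in MK-801 and 53.1, 56.7 and 42.5 CPM in VEH. Its MK-801 values lay below all VEH values, and MK-801+CLO replicate 3 lay among them.

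Grouped by seed, 571 miRNAs formed 480 families, of which 352 were tested. MiRNAs not matched by name in the RefSeq table, such as miR-99a-5p and miR-30d-5p, were left out, so some families lack members. No family passed an adjusted p of 0.05 in edgeR, 0 of 352 (0%), and DESeq2 and limma voom also called 0. At an unadjusted p under 0.05 there were 27 (7.67%), and 36 families (10.2%) did not overlap between groups. Families were scaled anew, so a family of 1 miRNA has a slightly different fold change from that miRNA: the smallest p, for miR-143-3p, came with 0.36 ± 0.09. Of the 47 families with at least 2 tested members, 27 had all members on 1 side of 0. Many of them have only 2 tested members, and 48.8% of all tested miRNAs lay above 0, so 2 unrelated miRNAs would often share a side. Whether family members moved together was not tested. Of the 59 tested families with 2 or more members, 5 had an unadjusted p under 0.05, against 7.67% of all families. The groups overlapped in all 5. Beside miR-7 and miR-132/212, they were miR-133a-3p with miR-133b-3p (0.42 ± 0.17), miR-34b-3p with miR-34c-3p (-0.82 ± 0.34) and miR-221-3p with miR-222-3p (-0.25 ± 0.11).

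Comparing the arms of 1 hairpin removes differences in library scaling. In 141 of 146 hairpins with both arms tested, the same arm was the more abundant in all 6 libraries, the 5p arm in 76 and the 3p arm in 65. No arm ratio passed an adjusted p of 0.05 in limma, 0 of 146 (0%), with 12 at an unadjusted p under 0.05 (8.22%) and 16 without overlap (11%). The median absolute difference of the log2 ratio was 0.15, close to the median SE of 0.16. The smallest p belonged to miR-298, with log2 ratios of 5p to 3p of 5.96, 6.21 and 5.96 in MK-801+CLO against 6.65, 6.69 and 6.87 in MK-801, and 5.97, 6.53 and 6.49 in VEH. The difference was -0.69 ± 0.17 (unadjusted p = 0.00283, adjusted p = 0.413). The scarce arm, miR-298-3p, was at 2.49, 3.89 and 2.93 CPM against 1.70, 2.28 and 1.89 CPM, while the abundant arm, miR-298-5p, had a fold change of -0.01 ± 0.21. The ratio for miR-15b was higher by 0.53 ± 0.15, where miR-15b-3p had a fold change of -0.74 ± 0.22 and miR-15b-5p one of -0.17 ± 0.14. For let-7g the ratio was higher by 0.43 ± 0.13 and for miR-380 lower, at -0.68 ± 0.22.

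**Figure D5:**
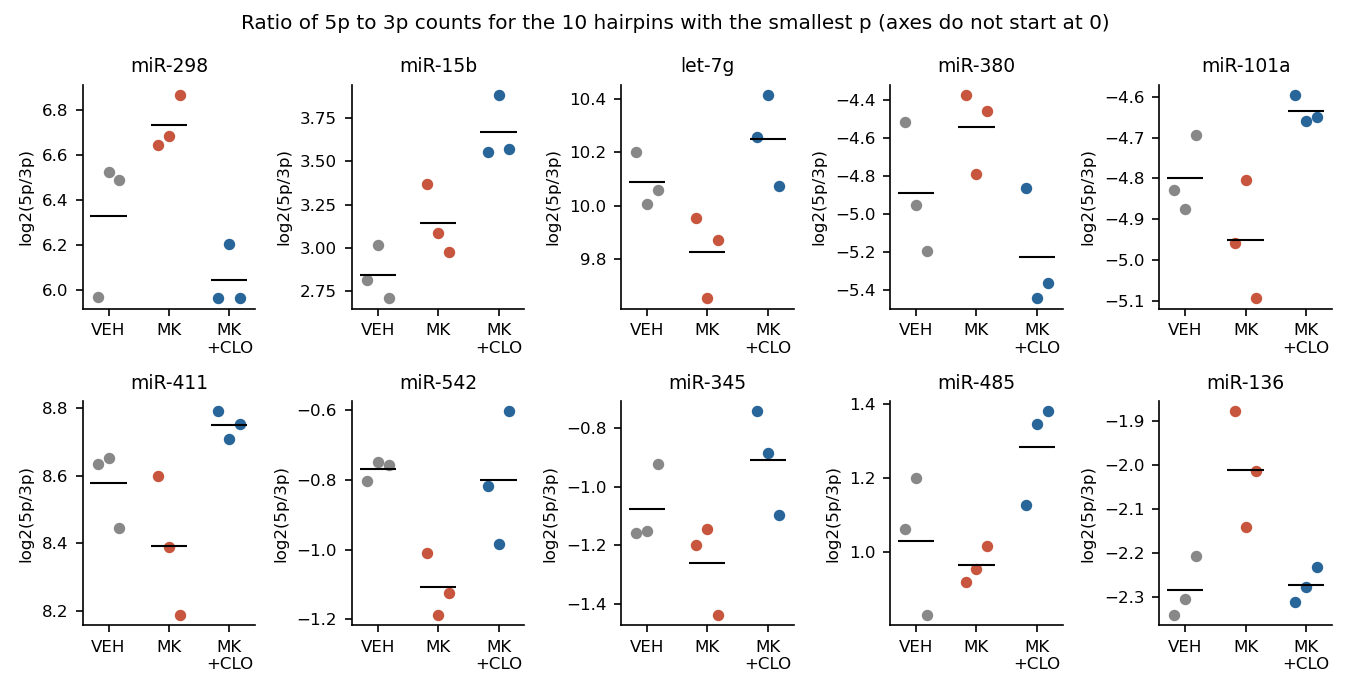
Log2 ratio of 5p to 3p counts in each of the 9 libraries for the 10 hairpins with the smallest unadjusted p, with group means as bars and axes that do not start at 0. The MK-801+CLO and MK-801 points do not overlap in any of the 10, which were chosen by p in these libraries, against 16 of all 146 hairpins (11%). The same arm dominates in both groups, as in 141 of the 146.

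The filter, which asks for counts in enough libraries, left out 164 miRNAs. Of these 18 were at 0 in all 6 libraries, the median of their highest count was 3, and the highest was 360, for miR-6321 in MK-801+CLO replicate 2 alone. None was counted in all MK-801+CLO libraries and in no MK-801 library. The reverse held for miR-3084c-5p and miR-3593-3p. The tested miRNAs under 10 CPM numbered 138. Among these 138 there were 5 higher and 4 lower ones at an unadjusted p under 0.05. These 9 are a smaller share than the 8.32% found over all 469 tested miRNAs. They include miR-1193-3p at 7.77, 8.84 and 8.09 CPM against 11.6, 10.5 and 10.9 CPM (-0.42 ± 0.13), miR-18a-5p (-0.54 ± 0.22) and miR-483-3p, from Igf2, at 2.18, 1.55 and 0.770 CPM against 0.680, 0.613 and 0.540 CPM (1.28 ± 0.53). At this depth the last of these rests on few counts in each library.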

How the data were processed

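Small RNA from hippocampus was sequenced in 9 libraries, grouped by their titles, and the 6 of the MK-801+CLO and MK-801 groups were compared. The authors deposited 1 table of whole-number counts for each miRNA and library, beside columns headed TPM. Those deposited columns hold CPM, each count scaled by its library total without a length term, to within 0.000473%. The tools are cutadapt 1.14, Bowtie and DESeq with build Rnor_6.0, per the submitters' processing notes, which give no roles. The treatment of reads that match several miRNAs is not stated in the labels or headers. The table held 21 blank lines, 1 name split over lines, 3 joint names and 3 miRNAs at 0 throughout.

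The counts were fitted with edgeR 4.0.16 under R 4.3.3 (filterByExpr, TMM, glmQLFit and glmQLFTest, all 9 libraries with 1 mean per group, Benjamini-Hochberg threshold 0.05). The filter kept 469 miRNAs with 99.997% of the counts, and they had a common biological coefficient of variation of 17.2%. Library totals ran from 10665718 to 18284905. Seed families were summed over bases 2 to 8 and fitted alike. Arm ratios, log2 of 5p over 3p counts after adding 0.5, were tested with limma 3.58.1. Lists are described only. The code was tested on simulated counts. The compared groups, the 14 lists and the rule for named miRNAs (the 30 with the smallest p at a mean of at least 10 CPM where fewer than 20 pass, the 10 most abundant, list members, families and arms of these, and miRNAs called by an alternative) were chosen with earlier results of these data known. Host genes and sequences come from RefSeq GRCr8, another build than that of the files, and coordinates were left out. In a chi-square comparison of counts, no 2 of the 9 libraries agreed within sampling noise. Alternatives included DESeq2 1.42.0, limma voom and limma-trend, other scaling factors and filters, and each library left out. Intervals are 95%, and floors cover counting error only.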

Additional observations from a re-analysis of the deposited data

How the results depend on the processing

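No miRNA passed an adjusted p of 0.05 under 11 of the 12 alternatives that kept all libraries of the comparison, and DESeq2 called 2. Leaving out each of the 6 libraries in turn gave 0 to 2 calls, the 2 being miR-128-3p and miR-211-5p without MK-801+CLO replicate 2. Seed families and arm ratios gave 0 calls in every alternative run. At an unadjusted p under 0.05, leaving out a library gave 18 to 52 miRNAs, 13 to 34 seed families and 9 to 18 arm ratios, against 39, 27 and 12. The miRNA count was lowest without MK-801+CLO replicate 3 (18), next without MK-801 replicate 1 (23) and highest without MK-801+CLO replicate 2 (52), and the family count was 13 without either of the first 2. The 30 named miRNAs kept their direction in all 540 alternative values. They were chosen by small p in the main fit, and each alternative refits the same libraries or all but 1 of them. A kept direction was therefore likely from the start and adds no independent evidence. A replicate block gave 35 miRNAs, 19 seed families and 9 arm ratios at an unadjusted p under 0.05 and 0 at the adjusted threshold in each. The replicate numbers share only a number: deviations of same-numbered libraries correlated at 0.25, -0.05 and 0.11, and MK-801+CLO replicate 2 correlated best with MK-801 replicate 3 (0.22). Precision was lowest under 10 CPM, where 59.4% of intervals lay within 2-fold; a match on depth was not run. Taking seeds from the deposited sequences was added after seeing the data and gave 27 families.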

Other observations

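Single libraries held most of the counts of a few miRNAs. MK-801 replicate 2 held 158 counts of miR-489-3p, with at most 7 in any of the other 5 libraries (86.5% of the 6-library sum), and 113 counts of miR-653-5p, with at most 6 elsewhere. It also held 22 counts of miR-653-3p, with at most 3 elsewhere, and all of them lie in Calcr, the calcitonin receptor gene. The fitted log2 fold change of miR-489-3p, -4.04 ± 1.54, came from that library: it was -1.04 without it. MK-801+CLO replicate 2 held 360 counts of miR-6321, from Rufy3, at 35.0 CPM, with 0 in the other 5 libraries.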
